A study of Mus musculus with 9 samples.

Results

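The IFIT genes, Isg15, Usp18, the viperin gene Rsad2 and its neighbour Cmpk2 are interferon-stimulated genes, and their RNA was followed in splenic Gr-1+ cells of transplanted mice. The 7 members were Ifit1, Ifit2, Ifit3, Isg15, Usp18, Rsad2 and Cmpk2. Every probe that the platform annotation assigns to one of these symbols was taken, which gave 10 of 45281 probes on the array: 2 each for Ifit2, Ifit3 and Usp18, and 1 each for the other members. The genes were chosen by their measured signals on these same arrays, above all the higher signals in the IDO KO group than in the WT group. The differences between KO and WT cells below are therefore a description. The members called in that contrast are counted beside all genes, but these counts are not a test of the members.

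Total RNA of Gr-1+ (Ly6G+) spleen cells, purified magnetically 7 days after a bone marrow transplant, was hybridised to Illumina mouse BeadChips. There were 3 groups of 3 arrays. The KO group was labelled with the strain B6.129-Ido1tm1Alm/J (IDO KO), which lacks the tryptophan-degrading enzyme IDO1. This group had an allogeneic transplant. The WT group was labelled C57BL/6 (B6), also with an allogeneic transplant, the setting of graft-versus-host disease (GVHD). The syngeneic group was labelled C57BL/6 (B6) as well and had no GVHD. The strain of the donors, the age of the animals, and whether the sorted cells descended from donor or host were not stated in the labels. The KO arrays lay on a chip of their own and the WT and syngeneic arrays together on the other, so for KO cells the genotype cannot be told apart from the chip. The labels do not say whether each array stands for a different animal. All p-values below therefore refer to the spread among arrays, and that spread may be technical.

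Type I interferons bind the receptor IFNAR, whose kinases JAK1 and TYK2 phosphorylate STAT2. STAT2 and IRF9 are subunits of the factor ISGF3, which binds interferon-stimulated response elements in the promoters of its target genes. The IFIT proteins bind viral RNA and translation factors, ISG15 is a ubiquitin-like protein that is attached to other proteins, and USP18 removes ISG15 and also holds back signalling at the receptor. Viperin, made from Rsad2, converts CTP into a chain-terminating nucleotide, and CMPK2 is a mitochondrial nucleotide kinase.

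Promoters of the members were searched for a pattern of letters of the kind found in such elements. RefSeq promoter windows of the build GRCm38.p6, each from 250 bases before to 50 bases after a gene's start, were found for 6 of the 7 members. Both strands were searched for GAAA followed by any 2 bases and a second GAAA, which reads TTTC, any 2 bases and TTTC on the opposite strand, with overlapping matches counted. The letters stood in the windows of Ifit1, Ifit3, Isg15 and Rsad2, 4 of the 6 members, against 3.99% of the 27025 genes with a window. They were not found in the Cmpk2 window or in the 2 windows of Ifit2. The bases from -170 to -51 of the 4 promoters follow, 5′ to 3′ on the strand of the gene, with the matches in capitals. They lie at chr19:34640719-34640838 (plus strand, Ifit1), chr19:34583359-34583478 (plus strand, Ifit3), chr4:156200869-156200988 (minus strand, Isg15) and chr12:26456503-26456622 (minus strand, Rsad2).
Ifit1: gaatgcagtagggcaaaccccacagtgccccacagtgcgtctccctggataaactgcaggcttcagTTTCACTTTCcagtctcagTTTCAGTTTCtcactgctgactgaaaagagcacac
Ifit3: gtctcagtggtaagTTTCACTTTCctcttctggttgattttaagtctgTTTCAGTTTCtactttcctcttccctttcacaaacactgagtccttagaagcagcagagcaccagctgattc
Isg15: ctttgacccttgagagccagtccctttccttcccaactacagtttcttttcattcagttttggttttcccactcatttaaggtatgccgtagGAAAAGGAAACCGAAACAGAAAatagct
Rsad2: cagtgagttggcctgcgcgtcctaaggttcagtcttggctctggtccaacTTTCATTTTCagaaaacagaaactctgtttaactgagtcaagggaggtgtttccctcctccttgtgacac
Isg15 held 3 matches, which overlap and start at bases -78, -72 and -66. Ifit1 held 2, at -104 and -85, Ifit3 held 2, at -156 and -122, and Rsad2 held 1, at -120. A match describes these letters and not a bound site. Ifit2, Ifit3 and Ifit1 lie in 1 cluster on chromosome 19 together with Ifit1bl1, Ifit3b and Ifit1bl2, and Rsad2 and Cmpk2 are neighbours on chromosome 12.

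One array and some features of the sort bear on all values that follow. Log2 intensities of each KO array correlated with its own group at 0.993 to 0.995 and those of the syngeneic arrays at 0.998, whereas WT replicate 2 correlated with the other WT arrays at only 0.919. The summed signal of 10 neutrophil markers tested was 57363.5 on WT replicate 2, against 161600 to 168912 on the other WT arrays. The summed signal of 8 T cell markers was 54361 there, against 7740.4 to 7935. That of 7 erythroid markers was 56373.5, against 10092 to 10866. S100a8, one of these neutrophil markers, stayed between 23175 and 31801 on all 9 arrays, while Retnlg, another, had 295 on WT replicate 2 and 27003 to 31679 on the others. Ly6g, the gene behind the sort, was not analysed here. Ido1 was above the background limit, a signal of 14.3, on 0 of 3 KO arrays, on 3 of 3 WT arrays, at 20.0 to 33.8, and on 0 of 3 syngeneic arrays. Xist, the transcript of the inactive X chromosome in females, was not above the limit on any KO array. It lay at 347 to 464 on the WT arrays and 713 to 910 on the syngeneic arrays. The Xist difference ran along with genotype and chip, so in the KO comparisons it cannot be told apart from them. Its part there was not tested.

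In KO cells, 5 of the 6 members that could be tested had their highest levels of the 3 groups, and the exception was Rsad2, which was highest in syngeneic cells. In KO against syngeneic cells Isg15, Usp18, Ifit2 and Cmpk2 rose, between 2.02-fold and 3.46-fold. Ifit3 was higher and Rsad2 lower there without overlap of arrays. Neither passed the test with all 9 arrays, but both did with only the KO and syngeneic arrays in the fit. In WT against syngeneic cells Rsad2 fell, and the other members did not pass the test with all 9 arrays. Ifit1 was not measurable. Members were tested with limma over the 10872 genes that had a probe above the background limit on at least 3 of the 9 arrays, with 1 mean per group and Benjamini-Hochberg adjustment. Differences are on the log2 scale of background-corrected intensities with an offset of 50, which understates the change of dim probes, and are given with their standard error (SE).

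**Figure D1:**
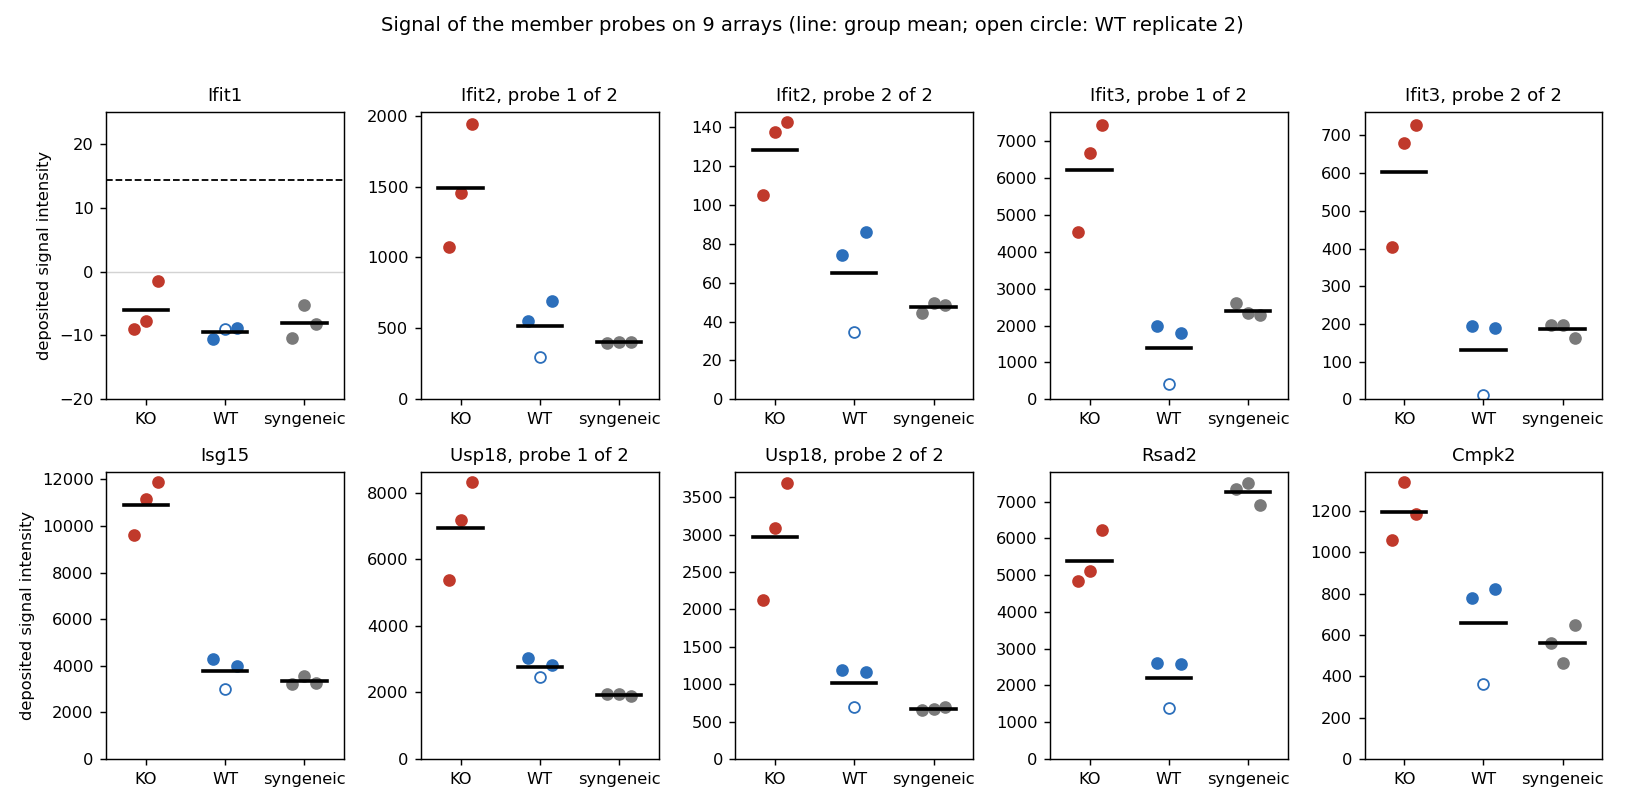
Deposited signal intensity (vertical axes, linear, different range in each panel) of the 10 probes of the members on the 3 KO, 3 WT and 3 syngeneic arrays; points are arrays, short lines are group means, the open circle is WT replicate 2, and the dashed line in the Ifit1 panel is the background limit of 14.3. KO arrays lie above all others for every probe except those of Ifit1, below the limit throughout, and Rsad2, whose syngeneic arrays (6924 to 7513) lie above the KO arrays (4850.4 to 6216).

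Isg15 had signals of 9627, 11144 and 11890.3 on the KO arrays, 4283, 3011 and 4003 on the WT arrays, and 3211, 3551 and 3237 on the syngeneic arrays. All KO arrays stood above all WT and syngeneic arrays, and WT and syngeneic arrays overlapped. The means were 10887 ± 1154 in KO cells, 3766 ± 668 in WT cells and 3333 ± 189 in syngeneic cells (SD, n = 3 each). Isg15 rose by 1.68 ± 0.14 in KO against syngeneic cells, a 3.21-fold difference (limma adjusted p = 0.000214). The difference was 1.53 ± 0.14 in KO against WT cells and 0.16 ± 0.14 in WT against syngeneic cells (limma adjusted p = 0.506). With all arrays the order was thus KO above a pair of groups that did not differ beyond their spread. Without WT replicate 2, the lowest WT array, Isg15 was higher in WT than in syngeneic cells by 0.31 ± 0.10 (limma adjusted p = 0.0375).

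Usp18, the ISG15 protease, was read by 2 probes. The brighter gave 5379, 7177 and 8321 on the KO arrays, 3040.3, 2449 and 2831 on the WT arrays, and 1945, 1966 and 1896 on the syngeneic arrays. No groups overlapped, and the order was KO, then WT, then syngeneic. The dimmer probe gave 2125, 3082 and 3690.4 on the KO arrays, 1186, 694 and 1159 on the WT arrays, and 655, 664 and 691 on the syngeneic arrays. It kept the same order without overlap, with WT replicate 2 just above the highest syngeneic array. Usp18 rose by 1.79 ± 0.16 in KO against syngeneic cells, a 3.46-fold difference (limma adjusted p = 0.000256). In KO against WT cells the difference was 1.29 ± 0.16. In WT against syngeneic cells it was 0.50 ± 0.16 (limma adjusted p = 0.0827), short of the threshold of 0.05. It passed with the 6 WT and syngeneic arrays alone (limma adjusted p = 0.0468) and without KO replicate 1 (limma adjusted p = 0.0289).

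Ifit1, which binds the 5′ end of foreign RNA, was read by 1 probe with signals of -8.94, -7.70 and -1.53 on the KO arrays, -10.5, -8.98 and -8.81 on the WT arrays, and -10.5, -5.18 and -8.28 on the syngeneic arrays. All lie below the limit, so the Ifit1 probe was not well above background in any group, and no difference was computed.

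Ifit2, an IFIT protein known for binding RNA and for restricting viruses, had signals on its brighter probe of 1072, 1454 and 1943 on the KO arrays, 555, 296 and 696 on the WT arrays, and 399.7, 401 and 406 on the syngeneic arrays. The KO arrays stood apart, and the WT arrays lay on both sides of the syngeneic arrays, with replicate 2 below them. The dimmer probe gave 105, 138 and 143 on the KO arrays, 74.5, 34.6 and 86.0 on the WT arrays, and 44.6, 49.5 and 48.5 on the syngeneic arrays, the same arrangement. Ifit2 rose by 1.69 ± 0.29 in KO against syngeneic cells, a 3.23-fold difference (limma adjusted p = 0.00686). The difference was 1.45 ± 0.29 in KO against WT cells, and 0.58 ± 0.15 on the dimmer probe. In WT against syngeneic cells it was 0.25 ± 0.29 (limma adjusted p = 0.610).

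Ifit3, which stabilises IFIT complexes in human cells, had signals on its brighter probe of 4544, 6693 and 7443 on the KO arrays, 1979, 409 and 1809 on the WT arrays, and 2602, 2346 and 2279 on the syngeneic arrays. No groups overlapped, and the order was KO, then syngeneic, then WT. The dimmer probe gave 403, 680.3 and 727 on the KO arrays, 194, 12.2 and 189 on the WT arrays, and 196, 198 and 164 on the syngeneic arrays. There, WT and syngeneic arrays overlapped, and WT replicate 2 was below the background limit. The mean of the brighter probe was 6227 ± 1505 in KO cells, 1399 ± 862 in WT cells and 2409 ± 171 in syngeneic cells (SD, n = 3 each). The difference was 1.32 ± 0.50 in KO against syngeneic cells (limma adjusted p = 0.141), 2.33 ± 0.50 in KO against WT cells and -1.02 ± 0.50 in WT against syngeneic cells (limma adjusted p = 0.237). With only the 6 KO and syngeneic arrays in the fit, the same 1.32 passed the test (limma adjusted p = 0.000104). Without WT replicate 2 the difference in WT against syngeneic cells was -0.34 ± 0.17 on the brighter probe (limma adjusted p = 0.153) and 0.04 on the dimmer one. The mouse genome holds a near-identical copy, Ifit3b, so which of the copies the Ifit3 probes read is uncertain.

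Rsad2 had signals of 4850.4, 5115 and 6216 on the KO arrays, 2602, 1376 and 2593 on the WT arrays, and 7337, 7513 and 6924 on the syngeneic arrays. No groups overlapped, and the order was syngeneic, then KO, then WT. The means were 5394 ± 724 in KO cells, 2190.5 ± 705 in WT cells and 7258 ± 303 in syngeneic cells (SD, n = 3 each). In WT against syngeneic cells Rsad2 fell by 1.75 ± 0.23 on the log2 scale (limma adjusted p = 0.00225), to 0.297 of the syngeneic level, with 3 of 3 WT arrays lower. With only the 6 arrays of that chip the adjusted p from limma was 0.0178. In KO against syngeneic cells the difference was -0.43 ± 0.23 (limma adjusted p = 0.284), and in KO against WT cells it was 1.32 ± 0.23. With only the 6 KO and syngeneic arrays in the fit, the same -0.43 passed the test (limma adjusted p = 0.00691).

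Cmpk2 had signals of 1058, 1343 and 1185 on the KO arrays, 781, 365 and 824 on the WT arrays, and 564, 466 and 647 on the syngeneic arrays. The KO arrays stood above the rest, and WT and syngeneic arrays overlapped through WT replicate 2. Cmpk2 rose by 1.02 ± 0.27 in KO against syngeneic cells, a 2.02-fold difference (limma adjusted p = 0.0444). This call was lost under 11 of 22 other settings, among them each fit without 1 KO array (limma adjusted p = 0.0833 without replicate 1, 0.144 without replicate 2 and 0.127 without replicate 3). It was also lost without any of the syngeneic arrays (limma adjusted p = 0.0942 to 0.156) and without WT replicate 1 (limma adjusted p = 0.0501). The difference was 0.87 ± 0.27 in KO against WT cells and 0.15 ± 0.27 in WT against syngeneic cells (limma adjusted p = 0.751).

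**Figure D2:**
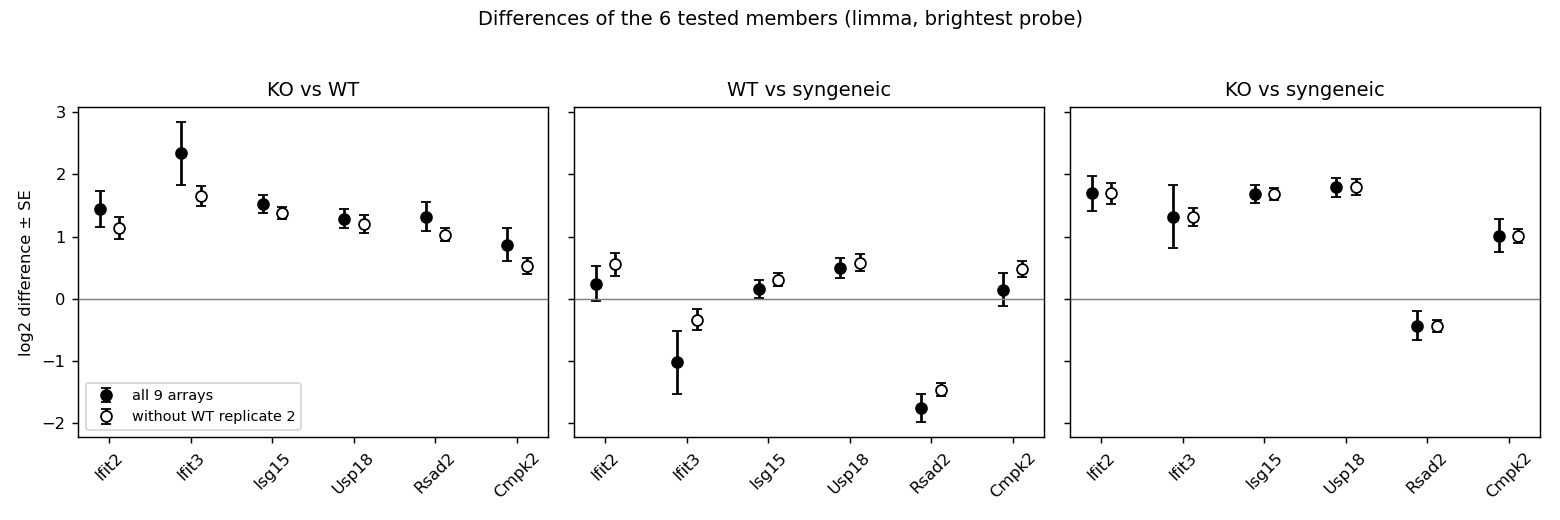
Log2 difference with its SE (vertical axis) of the 6 members tested, from limma on the brightest probe of each gene, in KO vs WT, WT vs syngeneic and KO vs syngeneic; filled points use all 9 arrays and open points leave out WT replicate 2. Rsad2 is the member below 0 in both comparisons with syngeneic cells, at -1.75 and -0.43, and the KO vs WT differences run from 0.87 to 2.33.

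Set against all genes, the members' counts were as follows. In KO against syngeneic cells 4 of 6 rose, when 5.09% of all genes tested rose, and 0 of 6 fell, when 6.85% of all genes fell. At an unadjusted p under 0.05 limma counted 5, all of them higher, but the share of all genes at that cut is not given here. The arrays did not overlap for any of the 6, with 5 higher (24.9% of all genes) and 1 lower (24.4% of all genes). The members' median difference was 1.50, that of all genes 0.02. In WT against syngeneic cells 0 of 6 rose, with 4.80% of all genes rising, and 1 of 6 fell, with 5.64% falling. At an unadjusted p under 0.05 limma counted 2, Usp18 as higher and Rsad2 as lower, again without the share of all genes. Without overlap of arrays, Usp18 was higher (1 of 6, against 21.9% of all genes) and Rsad2 and Ifit3 were lower (2 of 6, against 16.6%). The members' median was 0.15 and that of all genes 0.04. In KO against WT cells 4 of 6 (Isg15, Usp18, Rsad2 and Ifit2) were called higher, when 1.18% of all genes were, with a median of 1.38 against -0.02. All 6 were higher without overlap of arrays, as were 10.8% of all genes. Since that contrast chose the members, nothing is read from these counts. The 2 comparisons with syngeneic cells share the syngeneic arrays with each other and the KO or WT arrays with the comparison that chose the members.

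WT replicate 2 was the lowest of the WT arrays for each of the 6 members tested. Its log2 intensity minus the mean of the other WT arrays was -2.04 for Ifit3, -1.01 for Cmpk2, -0.93 for Ifit2, -0.88 for Rsad2, -0.45 for Isg15 and -0.25 for Usp18. Over all genes tested this difference had an SD of 0.855. The T cell, erythroid and neutrophil marker sums given above differ on the same array, and their part in the members' levels was not tested. Without it, WT cells were higher than syngeneic cells in Usp18 by 0.58 ± 0.14 (limma adjusted p = 0.00955), Ifit2 by 0.55 ± 0.18 (limma adjusted p = 0.0392), Cmpk2 by 0.48 ± 0.13 (limma adjusted p = 0.0134) and Isg15 by 0.31 ± 0.10 (limma adjusted p = 0.0375). These are 4 of 6 members, beside 14.6% of all genes called higher in the same fit. Rsad2 was lower, at -1.46 (limma adjusted p = 6.25e-07), 1 of 6 members beside 14.9% of all genes. In KO against syngeneic cells the same KO and syngeneic arrays, with the smaller spread of that fit, gave 5 members higher beside 19.3% of all genes, Ifit3 among them (limma adjusted p = 2.56e-05), and Rsad2 lower beside 20.0% (limma adjusted p = 0.0033). The KO vs WT differences then ran from 0.53 to 1.65, and 6 of 6 members were called, when 10.2% of all genes were called higher; nothing is read from this count, since that contrast chose the members.

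The genes of the set did not vary alike across arrays. As a measure of likeness, each member's log2 intensity was correlated with the mean of the other members over the 9 arrays, which share their groups. Ifit2 gave 0.94, Ifit3 0.93, Isg15 0.92, Cmpk2 0.90 and Usp18 0.82, whereas Rsad2 gave 0.32. Over the 8 arrays without WT replicate 2 Rsad2 gave -0.05 and the other members 0.81 to 0.97. The genes outside the set most like its mean profile over 9 arrays were Trim34a (0.991), Dhx58 (0.990), Xbp1 (0.989), Spint1 (0.989), Il18rap (0.988) and Fam20c (0.984). Over the 8 arrays they were Sdcbp2, Bgn, Tmprss13, Msc, Dab2 and Trim34a, so Trim34a was named both times.

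Rsad2 and Cmpk2, neighbours on the chromosome, were set side by side after their values were seen, each against its own syngeneic mean and with no test. Rsad2 lay at -0.57, -0.50 and -0.22 on the KO arrays and at -1.46, -2.34 and -1.46 on the WT arrays, on the log2 scale. Cmpk2 lay at 0.86, 1.18 and 1.01 on the KO arrays and at 0.45, -0.53 and 0.52 on the WT arrays. Rsad2 was thus below its syngeneic mean on all KO and WT arrays, and Cmpk2 was above its own on all of them but WT replicate 2.

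The summed signal of monocyte and macrophage markers had the same order of groups as Rsad2, but not every marker did. Of 12 such markers 9 were tested. Their sum, most of it from C1qb, Vcam1 and Spic, was 14414 to 18523 on the KO arrays, 3116 to 8325 on the WT arrays, and 58959.9 to 59933 on the syngeneic arrays. In WT against syngeneic cells 7 of the 9 fell, and in KO against syngeneic cells 6 fell. Mrc1, C1qa, C1qb, Vcam1 and Spic, 5 of the 9, were highest in syngeneic cells, then KO, then WT, without overlap of arrays. The other 4 did not have that order without overlap. For Csf1r and Adgre1 all syngeneic arrays were highest, but KO and WT arrays overlapped. Among the 4 was also the chemokine receptor gene Ccr2, with 559, 533 and 368 on the KO arrays, 1352, 228 and 1397 on the WT arrays, and 1058, 1113 and 1062 on the syngeneic arrays. Spic, a transcription factor of red pulp macrophages, fell in both, with differences of -4.31 ± 0.36 in WT cells (limma adjusted p = 0.000204) and -1.89 ± 0.36 in KO cells (limma adjusted p = 0.0121). Vcam1, an adhesion molecule of the same macrophages, fell likewise, with -3.56 ± 0.22 in WT cells (limma adjusted p = 3.33e-05) and -2.35 ± 0.22 in KO cells (limma adjusted p = 0.000343). All 9 were above the limit on every array. The part of these cells in the Rsad2 level was not tested, and in bulk RNA fewer cells of a type and less RNA per cell cannot be told apart. Erythroid markers had a summed signal of 2225 to 9866 on the KO arrays, 10092 to 56373.5 on the WT arrays and 64648 to 65906 on the syngeneic arrays, and 3 of 7 fell in KO and 1 of 7 in WT against syngeneic cells. On WT replicate 2, Epor, Klf1, Gata1 and Tfrc lay above every syngeneic array; without that array 7 of 7 fell in both comparisons. T cell markers had a summed signal of 13690.2 to 23349.5 on the KO arrays, above the 11379 to 11912 on the syngeneic arrays, and in KO against syngeneic cells 0 of 8 were called higher with all arrays and 6 of 8 without WT replicate 2. NK cell markers had 1 of 6 called higher with all arrays, and without WT replicate 2 they moved both ways, with 3 of 6 higher and 2 lower. Nkg7 had 12891, 11932 and 16372 on the KO arrays, against 8871, 9042 and 8624 on the syngeneic arrays, whereas Klrd1 had 105, 199 and 236 on the KO arrays, against 285, 289 and 326 on the syngeneic arrays. The part of the erythroid, T and NK cell markers in the members' values was not tested. For all these marker counts, the shares of all genes called are those set beside the members above.

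**Figure D3:**
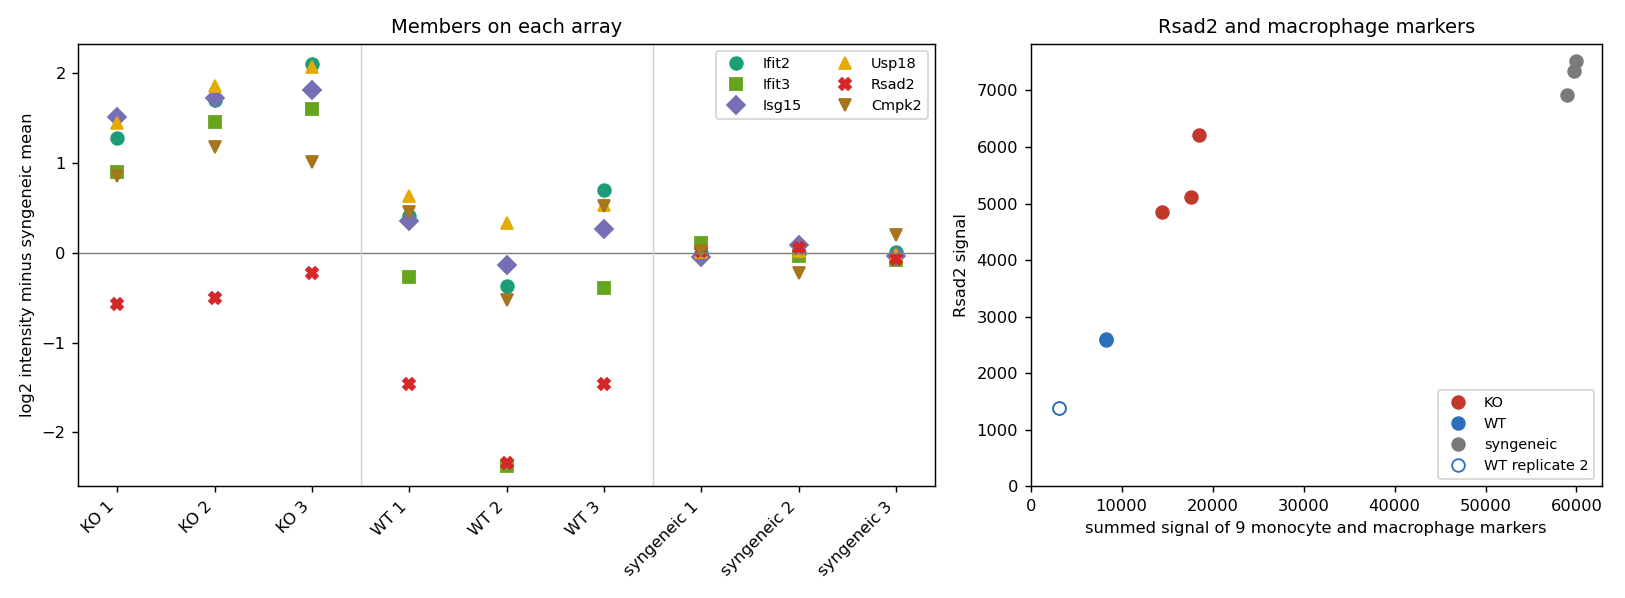
Left, log2 intensity of each member tested on each array minus that gene's syngeneic mean (vertical axis), by array; right, the deposited signal of Rsad2 (vertical axis) against the summed signal of 9 monocyte and macrophage markers (horizontal axis), 1 point an array. On the KO arrays 5 members lie above 0 and Rsad2 below it, and on the right the syngeneic arrays lie highest on both axes and WT replicate 2 lowest.

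The pathway around the members was described with lists that had been drawn up with earlier results of these arrays known. Among interferon ligands, 19 of 20 were on the array and 5 were tested. Ifnb1, the interferon beta gene, was above the limit on 1 of the 9 arrays, KO replicate 3, with a signal of 38.8. Ifna1, an interferon alpha gene, was dim at 50.4 ± 3.40 in KO, 36.2 ± 0.02 in WT and 29.9 ± 3.47 in syngeneic cells (SD, n = 3 each) and rose by 0.28 ± 0.07 in KO against syngeneic cells (limma adjusted p = 0.0367). Ifng, interferon gamma, had 390.1, 754 and 1907 on the KO arrays, 139, 1946 and 148 on the WT arrays, and 38.5, 31.3 and 46.9 on the syngeneic arrays. All KO and WT arrays stood above the syngeneic arrays, and WT replicate 2, the array with the high T cell markers, was the highest of all. The differences of Ifng, 3.10 ± 0.88 in KO against syngeneic cells (limma adjusted p = 0.057) and 2.08 ± 0.88 in WT against syngeneic cells (limma adjusted p = 0.170) did not pass the test. Without WT replicate 2 Ifng was called in KO against syngeneic cells, at 3.10 ± 0.37 (limma adjusted p = 4.35e-05), and in WT against syngeneic cells the difference was 1.00 ± 0.41 (limma adjusted p = 0.0944). Of 9 markers of plasmacytoid dendritic cells, known producers of type I interferon, 6 were tested, and among them Bst2 and Irf8 stand in the interferon lists as well. In KO against syngeneic cells Bst2 rose by 1.52 ± 0.32 (limma adjusted p = 0.0172) and Tcf4 fell by 1.34 ± 0.31 (limma adjusted p = 0.0271). Siglech, a receptor of these cells, had 24.9, 19.5 and 24.4 on the KO arrays, 215 on WT replicate 2 but signals below the background limit on the other WT arrays, and 167, 196 and 166 on the syngeneic arrays. Without WT replicate 2, 5 of the 6 were called lower in KO against syngeneic cells, all but Bst2, beside 20.0% of all genes.

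Of the receptor and ISGF3 genes 5 of 7 were tested. Stat2, a subunit of ISGF3, rose in KO against syngeneic cells by 0.96 ± 0.11 (limma adjusted p = 0.000864). It had 642 ± 21.6 in KO, 306 ± 48.1 in WT and 298 ± 18.7 in syngeneic cells (SD, n = 3 each). Jak1, the receptor kinase, fell by 1.10 ± 0.09 in WT against syngeneic cells (limma adjusted p = 0.000177) and had 199 ± 23.9 in KO, 73.9 ± 5.01 in WT and 234 ± 14.5 in syngeneic cells (SD, n = 3 each). Its order of groups, syngeneic, then KO, then WT, was that of Rsad2, although KO and syngeneic arrays overlapped. Both were called higher in KO against WT cells, Stat2 by 0.94 and Jak1 by 0.92.

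Of 4 interferon regulatory factors, Irf7, which drives interferon alpha genes, had 1943 ± 366 in KO, 537 ± 185 in WT and 469.6 ± 14.5 in syngeneic cells (SD, n = 3 each), and rose by 1.89 ± 0.24 in KO against syngeneic cells (limma adjusted p = 0.00166). Its difference in KO against WT cells was 1.77. Irf1, a factor induced by interferon gamma, rose in WT against syngeneic cells by 0.75 ± 0.15 (limma adjusted p = 0.0166) and in KO against syngeneic cells by 1.12 ± 0.15 (limma adjusted p = 0.00218). Irf8 went the other way in KO cells, by -0.56 against WT cells, with all KO arrays below all WT arrays. Against syngeneic cells it differed by -0.48 ± 0.17 (limma adjusted p = 0.106). Without WT replicate 2 Irf8 was called lower in both. Irf3 was not called in any comparison. Of the enzymes that attach ISG15 to proteins 4 of 5 were tested, and Uba7, the activating enzyme, rose by 0.86 ± 0.11 in KO against syngeneic cells (limma adjusted p = 0.0016). It was called higher in KO against WT cells as well, by 0.61. The IFIT paralogue Ifit1bl1 rose by 1.43 ± 0.29 in KO against syngeneic cells (limma adjusted p = 0.0156). Ifit1bl2 differed by 0.40 ± 0.52 (limma adjusted p = 0.699), although its KO arrays all stood above its syngeneic arrays. Its signal on WT replicate 2 was -8.90. Without that array the same difference of 0.40 had an SE of 0.096 and was called (limma adjusted p = 0.00609).

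Among 27 of 32 other type I interferon response genes that were tested, 14 rose in KO against syngeneic cells and 4 rose in WT against syngeneic cells. The 4 were Ifi35 (0.63 ± 0.08, limma adjusted p = 0.0020), Dtx3l (0.43 ± 0.09, limma adjusted p = 0.0196), the chemokine Cxcl10 (2.06 ± 0.52, limma adjusted p = 0.0429) and Oasl1 (0.51 ± 0.13, limma adjusted p = 0.0468). The median difference was 0.77 in KO and 0.11 in WT against syngeneic cells. In KO against WT cells 3 were called higher, Oasl1 by 1.36, the RNA sensor regulator Dhx58 by 0.96 and Parp14 by 0.51, with a median of 0.61. Without WT replicate 2 the counts were 23 in KO and 16 in WT against syngeneic cells, and 19 in KO against WT cells. Of all genes tested, 5.09% rose in KO and 4.80% in WT against syngeneic cells, and 1.18% in KO against WT cells. Without WT replicate 2 these shares were 19.3%, 14.6% and 10.2%, so they grew as well.

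Of 14 interferon-gamma induced genes tested out of 16, 13 rose in KO against syngeneic cells and 11 in WT against syngeneic cells, with medians of 1.46 and 1.03. In WT cells the guanylate-binding protein gene Gbp2 rose by 1.95 ± 0.10 (limma adjusted p = 1.66e-05), the peptide transporter gene Tap1 by 1.37 ± 0.09 (limma adjusted p = 4.34e-05), the GTPase gene Igtp by 1.96 ± 0.17 (limma adjusted p = 0.000209) and the immunoproteasome gene Psmb9 by 1.02 ± 0.09 (limma adjusted p = 0.000248). In KO against WT cells 4 were called higher, Cd274 by 1.62, Irgm2 by 0.66, Gbp2 by 0.63 and Icam1 by 0.55, with a median of 0.47. The WT against syngeneic comparison thus had 0 of 6 members, 4 of 27 other type I response genes and 11 of 14 interferon-gamma induced genes higher, but without WT replicate 2 these counts were 4 of 6, 16 of 27 and 12 of 14. Without that array 13 of the 14 rose in KO against syngeneic cells, and 11 were called higher in KO against WT cells. The shares of all genes called are those given with the other type I response genes. The difference between the lists was not tested.

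**Figure D4:**
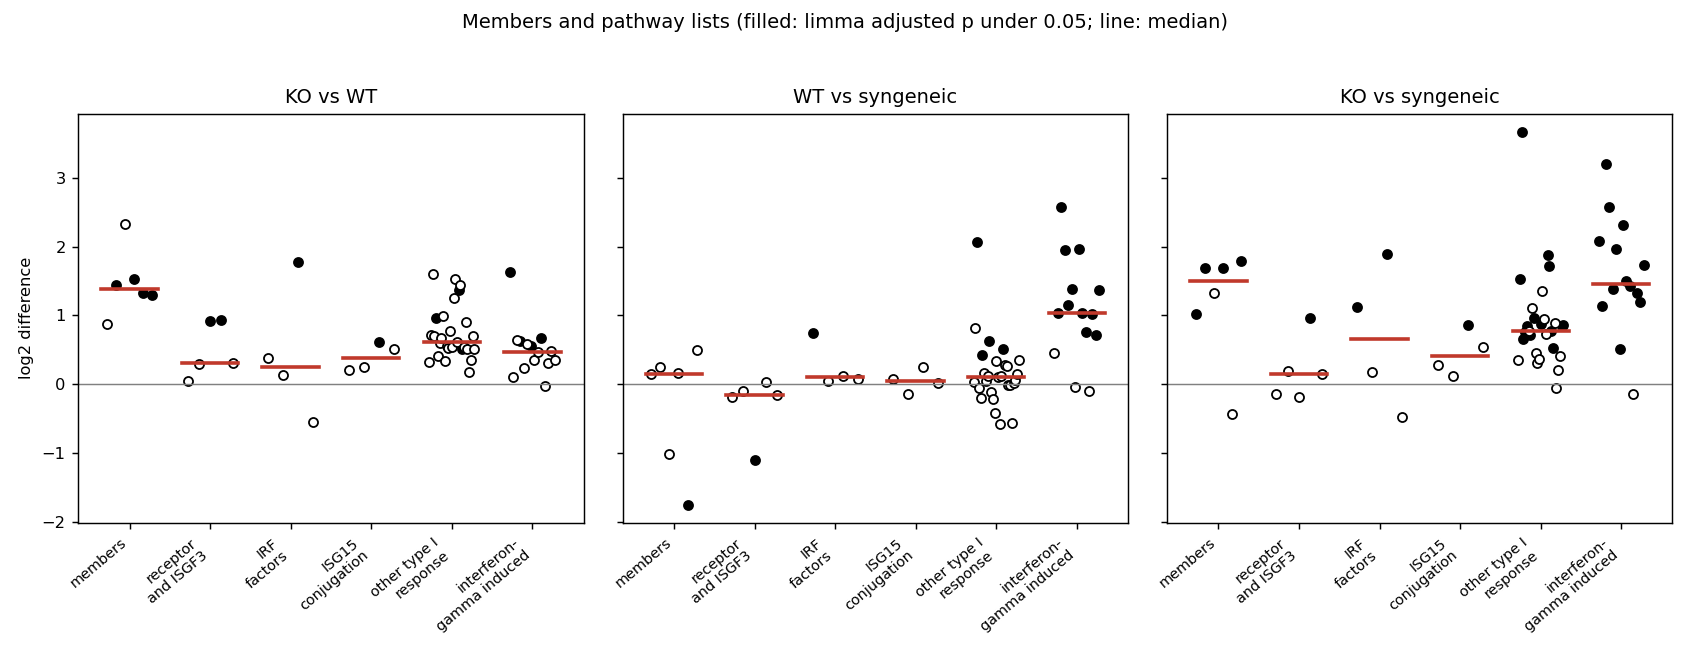
Log2 difference (vertical axis) of each gene tested in the member set and in 5 pathway lists, for KO vs WT, WT vs syngeneic and KO vs syngeneic; filled points passed limma at an adjusted p under 0.05, open points did not, and the red line is the list's median. The members' median is 0.15 in WT vs syngeneic and 1.50 in KO vs syngeneic, and that of the interferon-gamma induced genes is 1.03 and 1.46.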

How the data were processed

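For each probe and array the deposited data hold a signal intensity with its detection p-value. Per the submitters' processing notes GenomeStudio was used, with version and settings not given. The deposited intensity values look already background-subtracted and quantile-normalized. Signals go down to -21.0, and the number of probes above a signal of 14.3 varies only from 19158 to 19188 between arrays. The median of the arrays' upper quartiles was 102, and the highest signal on any array was 47219. Deposited log2 values in the series matrix equal log2 of these intensities within 1.09e-06. In that matrix 35.6% of signals, those not above 0, have no value. The rank order of deposited detection p-values matched that of the signals incompletely, with correlations of 0.710 to 0.763, and served in 1 alternative only.

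The members and the gene lists were chosen with earlier results of these data known. Intensities went through normexp with an offset of 50 and quantile normalization in limma 3.58.1 (R 4.3.3). A probe was kept when it exceeded, on at least 3 of 9 arrays, a signal of 14.3, the 95th percentile of 1619 probes named for sensory receptors or keratin-associated proteins; 20753 probes passed, and 19158 to 19188 exceeded it on each array. The brightest of a gene's probes stood for it, and 4245 of 10872 genes had several. Probes were named from the platform annotation: 34885 have 1 symbol, 18 have several and 10378 have none. A gene identifier matched the reference for 34807. The fit was lmFit and eBayes over 3 group means, with 9 arrays and a threshold of 0.05, and the number of arrays limits its precision. The fit was tested on simulated data. Of each list, up to 4 called genes with the smallest p in WT against syngeneic cells and the 4 largest called differences in KO against WT cells were named by rule. Further list genes, the cell type markers named, Ido1 and Xist were chosen after their values were seen. Alternatives changed the background correction, offset, normalization, filter, choice of probe, array weights, prior trend, arrays in the fit, replicate block and deposited values.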

Additional observations from a re-analysis of the deposited data

How the results depend on the processing

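Of 396 single-gene values under the alternatives, 329 kept their direction and side of the threshold, 42 lost and 23 gained a call, and 2 reversed. The size of a difference could change while its call was kept. With neqc, KO against syngeneic differences went from 1.69 to 0.20 for Ifit2 and from 1.02 to 0.11 for Cmpk2. Those of Isg15 went from 1.68 to 3.13 and of Usp18 from 1.79 to 1.87. Rsad2 in WT against syngeneic cells was called lower under all 22 alternatives, at -1.96 to -1.46. The reversed ones were Cmpk2 in WT against syngeneic cells without WT replicate 1, at -0.003 (limma adjusted p = 0.995), and without WT replicate 3, at -0.039 (limma adjusted p = 0.936), whereas without WT replicate 2 it was 0.48. The count of members called in KO against WT cells, 4, was 2 with neqc, 2 on the series matrix values and 0 with only the 6 arrays compared, where 6 had an unadjusted p under 0.05 in limma. Leaving out 1 array gave 1 (without KO replicate 2) to 6 (without WT replicate 2). It was 2 without WT replicate 1 or 3, KO replicate 3 or any syngeneic array. Under the 22 alternatives the call in KO against WT cells was lost 16 times for Ifit2 and 10 times for Rsad2. For Usp18 it was lost 4 times and for Isg15 1 time. The count in WT against syngeneic cells, 1, was 6 with array weights and 2 with only the 6 arrays compared, and leaving out 1 array gave 1 to 5, with 5 without WT replicate 2 and 2 without KO replicate 1. The count in KO against syngeneic cells, 4, stayed between 3 and 6. The labels share replicate numbers across groups, but same-numbered arrays deviated together only weakly or oppositely in KO and WT cells (correlations of 0.11, -0.11 and -0.17). With 3 arrays a group and WT replicate 2 apart from its group, these correlations cannot show whether the numbers pair arrays. The main fit used no pairing. With the replicate block the counts were 1 in KO against WT, 1 in WT against syngeneic and 3 in KO against syngeneic cells. The share of all genes called moved with the setting too. In KO against WT cells 1.18% were called higher with all arrays and 10.2% without WT replicate 2. For the other settings and for the unadjusted p that share is not given here. These counts are therefore not read as results about the members. The causes of the shifts were not tested. No depth is known for arrays, and dim probes such as that of Ifit1 have only a bound.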
